A study of Mus musculus with 4 samples.

Results

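Limb EGFP+ cells were compared with limb EGFP- cells through the H3K27ac peak lists of these fractions, which held 75259 peak intervals together, 40899 in EGFP+ cells and 34360 in EGFP- cells, of 142206 in the 4 lists of the series. Rows that shared their start and end, which are separate summits of 1 peak, were merged into 1 interval, and unplaced sequences were left out. Both fractions came from mouse fetuses at E14.5 that were derived by tetraploid aggregation from a single homozygous *Col2a1* EGFP reporter line of G4 embryonic stem cells. In this line a cassette of a minimal β-globin promoter and EGFP lies upstream of *Col2a1*, so EGFP+ and EGFP- cells carry the same alleles, and EGFP reads the regulatory activity of the *Col2a1* locus rather than a protein of the cartilage. Cells of the stylopod, zeugopod and autopod of fore- and hindlimbs were dissociated, pooled over fetuses and sorted for EGFP, and 1 ChIP-seq library was made per fraction. The EGFP+ fraction was sorted as *Col2a1*-active chondrocytes, and the EGFP- fraction is everything else in the limb, including connective tissue, muscle, skin, vessels, blood and nerve.

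With 1 library on each side, nothing below carries a replicate error and no test between the fractions was possible. Intervals quoted in brackets are exact and cover counting error only. Both limb libraries were named for the same sequencing lane. Reads of 50 or 100 bases and more than 1 sonicator are given for the libraries with no assignment, so their part in a difference was not tested. In sorted bulk cells, a mark carried by fewer cells and a weaker mark in every cell cannot be told apart.

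H3K27ac is an acetylated histone found at active promoters and active enhancers. Enhancers often lie far from the gene they act on, which is why peaks were counted at promoters and, separately, at distal sites around each gene. Limb bones form from cartilage templates, in which SOX9 with SOX5 and SOX6 turns on the genes of the cartilage matrix, such as collagen types II, IX and XI and the proteoglycan aggrecan. Chondrocytes then pass through the growth plate under the control of IHH, PTHLH, FGFR3 and BMP signals. The cells around the template form perichondrium, tendon, dermis and the connective tissue of muscle.

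A promoter reached from 2 kb before to 500 bp after any protein-coding start site of a gene in GRCm39, and 67388 start sites of 21581 genes were used. A gene is called gained at its promoter where an EGFP+ interval and no EGFP- interval overlapped such a window, and lost where the reverse held. A distal interval lay outside every promoter window and is called gained or lost where no interval of the opposite list overlapped it by 1 bp. These words name the presence of a called peak and not a change over time. Strength is given as −log10 p, which MACS2 computed against the local background of the same library, and as the number of reads at the summit, which follows from the fold and the −log10 p and was recovered for 100% of the intervals of both lists. Summits held 7 to 235 reads in the EGFP+ list, with a median of 26, and 7 to 234 in the EGFP- list, with a median of 24. The weakest 1% of called summits reached 8 reads. A site without a peak may hold more than that where the local background is high. The EGFP+ peak at the *Lrig3* promoter, for example, had 63 reads but a −log10 p of only 5.98.

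The regions about the cartilage genes *Sox9*, *Acan*, *Col2a1* and *Fgfr3* show what a gained distal interval looks like, and for each of these the bases up to 100 bp on either side of the summit of the strongest gained interval within 100 kb are given from the plus strand of GRCm39. The *Sox9* interval lay 83.7 kb upstream at chr11:112588787-112589466 and reached a −log10 p of 10.7 with 27 reads. The *Acan* interval lay 80.8 kb upstream of *Acan* at chr7:78621928-78623050 with a −log10 p of 29.1 and 70 reads. The *Col2a1* interval lay 22.5 kb upstream at chr15:97924667-97925404 with a −log10 p of 21.1 and 98 reads. The *Fgfr3* interval lay 28.7 kb upstream of *Fgfr3* at chr5:33850108-33850604 with a −log10 p of 27.4 and 95 reads. All 4 were intergenic, and that of *Acan* was nearer to *Isg20* and that of *Fgfr3* nearer to *Tacc3*. None of the consensus letters searched, which are spelled out with their shares further on, was found in these 4 windows, so they are in lower case throughout.
Sox9 gained: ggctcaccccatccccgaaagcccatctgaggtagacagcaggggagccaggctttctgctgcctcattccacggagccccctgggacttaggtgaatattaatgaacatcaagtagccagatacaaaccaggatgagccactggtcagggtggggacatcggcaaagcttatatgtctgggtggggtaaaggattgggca
Acan gained: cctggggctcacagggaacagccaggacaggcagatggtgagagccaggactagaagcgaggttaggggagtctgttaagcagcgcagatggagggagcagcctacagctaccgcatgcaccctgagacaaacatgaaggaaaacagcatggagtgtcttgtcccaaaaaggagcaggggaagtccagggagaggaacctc
Col2a1 gained: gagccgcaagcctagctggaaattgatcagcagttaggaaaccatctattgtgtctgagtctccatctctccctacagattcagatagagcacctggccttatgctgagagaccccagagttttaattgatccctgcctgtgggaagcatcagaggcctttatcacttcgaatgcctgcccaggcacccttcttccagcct
Fgfr3 gained: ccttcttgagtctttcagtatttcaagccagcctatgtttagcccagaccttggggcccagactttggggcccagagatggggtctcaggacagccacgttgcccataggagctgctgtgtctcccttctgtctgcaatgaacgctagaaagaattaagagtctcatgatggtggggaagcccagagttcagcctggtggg

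Capital letters mark a match to the SOX strings ACAATG or ACAAAG on either strand in 2 further gained windows, which were chosen after the values were seen as the strongest near *Acan* and *Fgfr3* that hold such a string. The *Acan* window belongs to chr7:78671447-78672094, 31.3 kb upstream, with a −log10 p of 22.1 and 55 reads. The *Fgfr3* window belongs to chr5:33874461-33874718, 4.43 kb upstream, with a −log10 p of 10.5 and 34 reads, and holds the string at positions 65 and 103 counted from its first base. A SOX string was present in 5 of 8 gained windows near *Sox9*, 6 of 18 near *Acan*, 4 of 14 near *Col2a1* and 1 of 11 near *Fgfr3*. Either string was present in 24.1% of all gained, 28.3% of all lost and 25.3% of all distal windows, so nothing particular to these loci is read from the counts.
Acan gained with SOX letters: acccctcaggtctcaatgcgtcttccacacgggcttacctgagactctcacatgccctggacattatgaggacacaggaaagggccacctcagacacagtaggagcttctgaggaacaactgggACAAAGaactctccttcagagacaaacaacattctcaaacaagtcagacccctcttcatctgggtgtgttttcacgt
Fgfr3 gained with SOX letters: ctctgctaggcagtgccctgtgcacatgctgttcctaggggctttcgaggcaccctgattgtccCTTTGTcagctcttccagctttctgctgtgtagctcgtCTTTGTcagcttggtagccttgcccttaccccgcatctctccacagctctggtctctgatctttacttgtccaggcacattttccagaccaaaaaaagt

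On the EGFP- side, the strongest lost distal intervals near *Trp63*, the master factor of stratified epithelium, and *Erg*, an endothelial and joint transcription factor, are shown. The *Erg* locus as a whole leaned to EGFP+ cells, with 14 gained and 3 lost distal intervals and a promoter peak of 85 reads in EGFP+ and 14 in EGFP- cells. The *Trp63* interval lay 98.5 kb upstream at chr16:25403894-25404100 with a −log10 p of 7.43 and 13 reads, and its capitals mark ACAAAG, the TEAD string ACATTCC on the minus strand and the E-box CATATG. The interval near *Erg* lay 88.2 kb upstream at chr16:95475333-95475855, nearer to *Ets2*, with a −log10 p of 16.8 and 29 reads, and its capitals mark the AP-1 string TGAGTCA on both strands. Near *Scx*, the tendon factor, the single lost interval lay 8.61 kb downstream in an intron of *Bop1* with a −log10 p of 4.26. No gained or lost distal interval lay within 100 kb of *Myod1*, the muscle master regulator.
Trp63 lost: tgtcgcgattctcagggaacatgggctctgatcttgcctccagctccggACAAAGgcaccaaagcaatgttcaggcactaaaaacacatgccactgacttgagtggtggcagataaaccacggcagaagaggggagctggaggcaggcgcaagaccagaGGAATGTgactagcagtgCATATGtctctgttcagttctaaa
Erg lost: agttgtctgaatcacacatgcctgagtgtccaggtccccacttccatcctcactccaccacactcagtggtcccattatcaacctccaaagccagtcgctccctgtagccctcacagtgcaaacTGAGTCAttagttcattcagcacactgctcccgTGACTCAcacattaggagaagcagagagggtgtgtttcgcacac

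The promoters of cartilage matrix genes were marked more often in EGFP+ cells. Of 25 matrix genes, 15 were gained, 0 were lost, 7 had a peak in both fractions and 3 had none. Over all genes, 4.83% were gained, 2.02% were lost, 49.6% had a peak in both and 43.6% had none. The 3 collagen IX genes, whose chains decorate the collagen II fibril, were all gained. *Col9a2* reached a −log10 p of 37.2 with 110 reads (90.4 to 133) in EGFP+ cells, *Col9a3* 29.9 with 110 reads and *Col9a1* 28.3 with 90 reads, and none had an EGFP- peak in the window. An EGFP- interval began 132 bp beyond the *Col9a2* interval, outside the promoter window. *Mia*, which encodes a small secreted protein of cartilage, reached 31.3 with 114 reads, but its interval ran past the window into an EGFP- interval and also covered a start site of *Rab4b*, so its absence in EGFP- cells rests on the window edge. *Col11a2*, a chain of collagen XI, reached 22.0 with 94 reads. *Snorc*, a membrane proteoglycan of chondrocytes, reached 20.4 with 58 reads. *Acan*, encoding aggrecan, was gained with a −log10 p of 19 and 70 reads (54.6 to 88.4). The remaining gained matrix genes, among them *Chad*, *Susd5*, *Matn1*, *Comp*, *Cnmd*, *Cytl1* and *Matn3*, ran from 19.1 down to 4.78 at *Otor*.

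*Col2a1* itself, which carries the reporter cassette, had a promoter peak in both fractions. Its summit held 110 reads (90.4 to 133) in EGFP+ cells and 14 (7.65 to 23.5) in EGFP- cells, with a −log10 p of 18.7 against 5.67. These were separate intervals of the window, and no EGFP- interval lay within 677 bp of the EGFP+ one. *Matn4*, a matrilin that bridges matrix fibrils, held 86 reads against 9, in an interval that also covered a start site of *Rbpjl*. *Hapln1*, the link protein that holds aggrecan on hyaluronan, held 85 reads against 17, and *Col27a1*, a fibrillar collagen, 82 against 22 in intervals that did not overlap. All 7 matrix genes with a peak in both fractions had the higher −log10 p and the higher rank within its own list in EGFP+ cells, and the median difference in rank was 33.9 percentile points. Among all 10699 genes with a peak in both fractions, 74.9% had the higher −log10 p and 63% the higher rank in EGFP+ cells. Their median difference in rank was 2.44 points, and their median summit held 66 reads in EGFP+ and 51 in EGFP- cells. The values of each fraction are those of its strongest interval at the promoter, and in 16.3% of these genes, and in 21 of 94 listed ones, the 2 intervals did not overlap. *Epyc*, *Ucma* and *Hapln3* had no promoter peak in either list. Requiring a fold of at least 4 in both lists left 5 matrix genes gained and made 2 lost, *Hapln1* and *Col11a1*, whose EGFP+ peaks had a fold of 3.46 and 2.52 over the local background and whose EGFP- peaks had 4.23 and 4.08. *Col9a3*, with 110 reads, had a fold of 3.65.

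**Figure D1:**
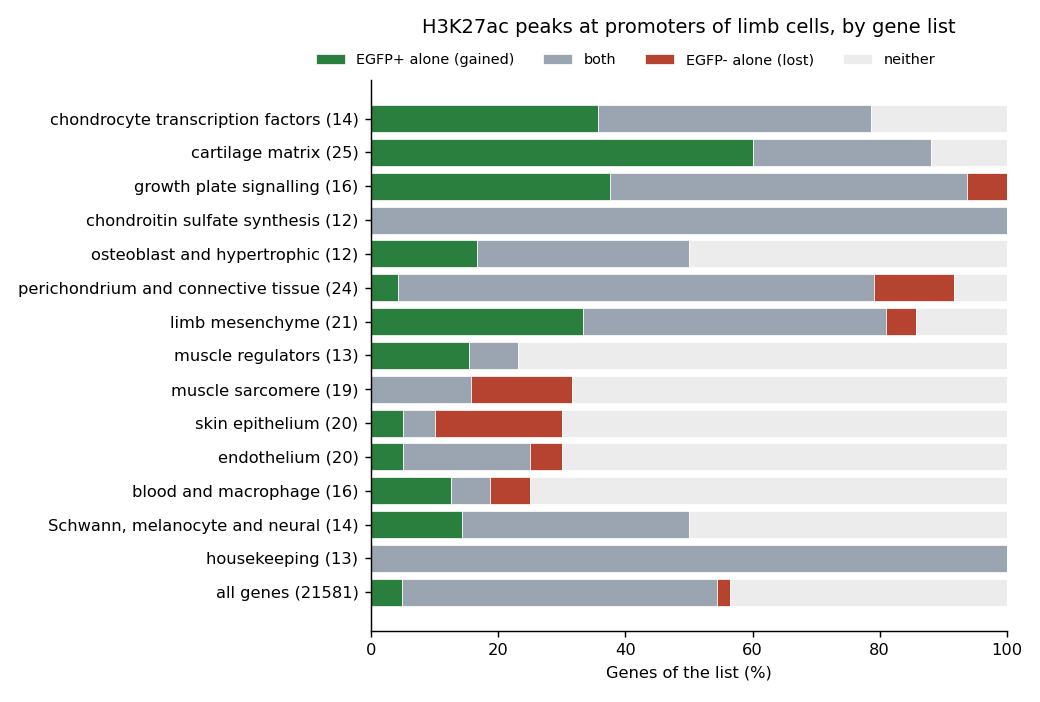
Share of genes in each list with an H3K27ac peak at the promoter in EGFP+ limb cells alone, in both fractions, in EGFP- cells alone or in neither (horizontal axis in percent, number of genes in brackets). Of the cartilage matrix genes 60.0% were gained, against 4.83% of all genes, while 70.0% of the skin and 76.9% of the muscle regulator genes had no peak in either fraction.

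Transcription factors of chondrocytes followed the same direction with more genes in common. Of 14 factors, 5 or 35.7% were gained, 0 lost, 6 in both and 3 in neither, against 4.83% gained and 2.02% lost over all genes. *Foxc1*, a forkhead factor of skeletal progenitors, had the strongest gained promoter of the list with a −log10 p of 26.5 and 96 reads (77.8 to 117), although both trunk fractions had a peak there. *Sox8*, a close relative of *Sox9*, reached 14.0 with 57 reads, *Nkx3-2* 12.2 with 34 reads, *Sox5* 10.4 with 62 reads and *Runx3* 7.82 with 24 reads. An EGFP- interval lay 335 bp from the *Sox5* interval. *Sox9* was marked in both fractions and held 103 reads (84.1 to 125) in EGFP+ cells and 35 (24.4 to 48.7) in EGFP- cells. *Sox6* held 88 against 20 reads, at different start sites, and its EGFP+ interval also covered a start site of *1110004F10Rik*. *Mef2c*, which acts in hypertrophy and also in muscle and vessels, went the other way in −log10 p, with 15.5 in EGFP+ and 22.2 in EGFP- cells. *Foxa2*, *Shox2* and *Foxc2* had no promoter peak. At a fold of at least 4, *Nkx3-2* alone was gained and *Sox9* was lost, its EGFP+ fold being 2.90 and its EGFP- fold 4.68.

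Around these factors the distal intervals also leaned to EGFP+ cells. Of the 14 genes, 12 had more gained than lost distal intervals within 100 kb and 0 had more lost, against 37.5% and 22% of all genes. Together they had 116 gained and 10 lost. *Runx3* had 16 gained and 0 lost, *Sox5* 14 and 0, *Foxc1* 13 and 0, *Sox6* 15 and 1, and *Sox8* 15 and 2. *Foxc2*, with no promoter peak, had 10 gained and 0 lost. *Sox9* had 8 gained and 1 lost.

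Genes of growth plate signalling had 6 gained promoters among 16, or 37.5%, with 1 or 6.25% lost, 9 in both and 0 in neither. Over all genes, 4.83% were gained and 2.02% lost. *Fgfr3*, the receptor that slows chondrocyte division, was gained with a −log10 p of 30.2 and 80 reads (63.4 to 99.6). The BMP family ligand *Gdf10* reached 19.5, the BMP antagonist *Nog* 17.5, the ligand *Pthlh* 14.2 and *Hhip*, a decoy for hedgehog ligands, 11.5. *Ihh*, the ligand of prehypertrophic cells, had a weak gained promoter with a −log10 p of 5.61 and 11 reads, beside 10 gained and 0 lost distal intervals. *Npr3*, the clearance receptor for natriuretic peptides, was the single lost gene, with 10.4 and 20 reads in EGFP- cells. Its partner receptor *Npr2*, which drives growth plate expansion, was marked in both fractions with 21.8 in EGFP+ and 11.1 in EGFP- cells. *Gdf5*, a joint and early cartilage ligand, held 57 reads in EGFP+ and 15 in EGFP- cells, and the receptor *Bmpr1b* 68 against 16 in intervals 125 bp apart. All 9 genes with a peak in both fractions had the higher −log10 p in EGFP+ cells. Of the 16 genes, 14 had more gained than lost distal intervals and 0 had more lost.

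The enzymes and transporters that build chondroitin sulfate, the sugar chain of aggrecan, were marked in both fractions and had mostly stronger peaks in EGFP+ cells. All 12 had a promoter peak in both fractions, so 0 were gained or lost. At a −log10 q of at least 5, 2 were gained and 0 lost, and among the 20000 strongest intervals 3 were gained and 1 lost. *Papss2*, which makes the sulfate donor, held 120 reads (99.5 to 143) in EGFP+ cells and 14 (7.65 to 23.5) in EGFP- cells. The sulfate transporter *Slc26a2* held 63 against 31 in intervals 191 bp apart, the sulfotransferase *Chst11* 57 against 13 in intervals 488 bp apart, *Chst3* 75 against 30, and the xylose kinase *Fam20b* 60 against 19. *Chpf*, a chondroitin polymerase subunit, had 25 against 18 reads with a −log10 p of 10.2 and 10.3, in intervals 563 bp apart. In 11 of the 12 the −log10 p was higher in EGFP+ cells, against 74.9% of all genes in both, in 10 the rank was higher, against 63%, and the median difference in rank was 16.2 points. The group had 72 gained and 17 lost distal intervals.

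**Figure D2:**
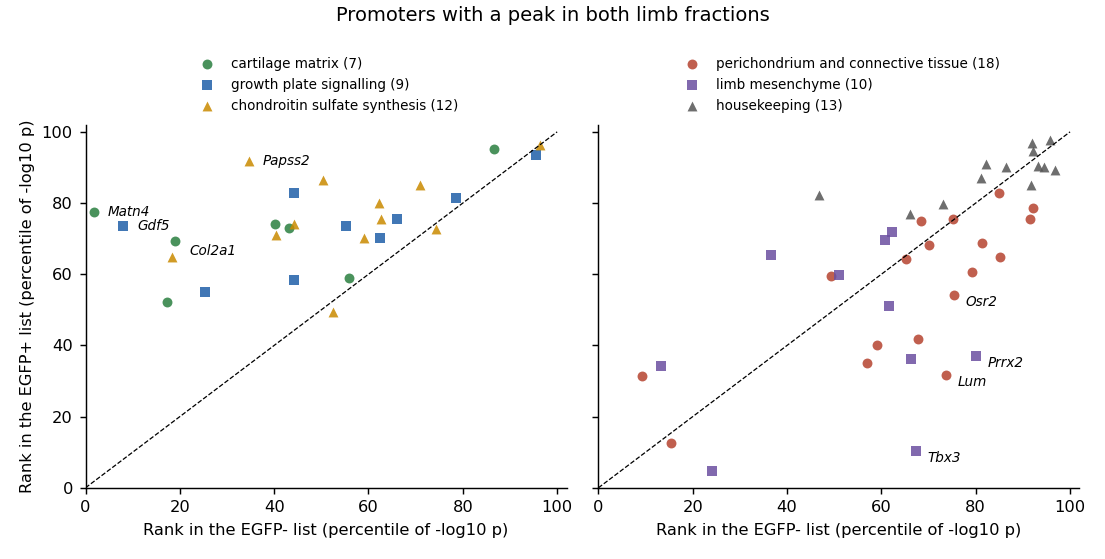
Rank of the promoter peak within the EGFP+ list (vertical axis, percentile of −log10 p) against its rank within the EGFP- list (horizontal axis), for genes with a peak in both limb fractions; each point is a gene, numbers in brackets count genes and the dashed line marks equal ranks. Cartilage matrix, growth plate and chondroitin sulfate genes lie mostly above the line, and 14 of the 18 perichondrium and connective tissue genes lie below it.

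Of 12 genes of bone formation and hypertrophy, *Runx2* and *Dlx6*, or 16.7%, were gained, 0 were lost, 4 were in both and 6, or 50%, in neither. Over all genes, 4.83% were gained, 2.02% lost and 43.6% in neither. *Runx2*, the factor that drives osteoblasts and hypertrophic chondrocytes, reached 11.6 with 45 reads in an interval that also covered a start site of *Supt3*, and *Dlx6* 5.70 with 13 reads. At a −log10 q of at least 5 *Dlx6* was no longer called, although the list still held 2 gained genes. *Sp7*, an osteoblast factor, held 37 reads against 16. *Col1a1*, the bone and connective tissue collagen, held 60 reads in EGFP+ and 78 in EGFP- cells, with 3 gained and 9 lost distal intervals. *Col10a1*, *Ibsp*, *Spp1*, *Alpl*, *Bglap* and *Mmp13*, which mark late hypertrophic cells or osteoblasts, had no promoter peak in either fraction.

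At promoters, connective tissue genes leaned to the EGFP- side. Of 24 genes, 1 was gained, 3 or 12.5% lost, 18 in both and 2 in neither, against 4.83% gained and 2.02% lost over all genes. The lost ones were *Dpt*, a matrix protein of dermis and muscle connective tissue, with a −log10 p of 13.0 and 27 reads (17.8 to 39.3), *Dcn*, the collagen-binding decorin, with 12.8 and 41 reads, and *Ebf2* with 6.36 and 21 reads. *Kera* was gained with 5.64 and 10 reads. Among the 18 genes in both, 7 had the higher −log10 p and 4 the higher rank in EGFP+ cells, and the median difference in rank was -13.1 points. *Lum*, a proteoglycan of connective tissue, had 7.17 in EGFP+ and 19.3 in EGFP- cells, *Osr2* 11.5 and 20.5, *Thbs2* 8.63 and 16.0, and *Col3a1* 13.8 and 23.3. *Col5a1* went against this with 22.9 and 16.4. The list had 97 gained and 80 lost distal intervals, of which 21 gained and 2 lost lay around *Foxp1*. More gained distal intervals were found around 11 genes, or 45.8%, and more lost around 10, or 41.7%. Over all genes these shares were 37.5% and 22%. At a fold of at least 4, 2 were gained and 7 lost, and among the 20000 strongest intervals of each list 0 were gained and 6 lost.

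Limb patterning genes were more often gained than lost at the promoter. Of 21 genes, 7 or 33.3% were gained, 1 or 4.76% lost, 10 in both and 3 in neither. Over all genes, 4.83% were gained and 2.02% lost. Of the 10 in both, 5 had the higher −log10 p in EGFP+ cells. *Msx1*, a homeobox gene of undifferentiated mesenchyme, had the strongest gained promoter with a −log10 p of 14.8 and 37 reads. *Lhx2* reached 9.19, *Irx5* 8.4, *Tbx2* 6.87, *Pitx1* 6.04, *Msx2* 5.70 and *Prrx1* 5.50, so most of these peaks were weak, and an EGFP- interval lay 96 bp from that of *Prrx1*. *Irx3* was lost with 6.66 and 14 reads, although *Irx5*, its neighbour in the Iroquois cluster, was gained. Of the genes in both, *Tbx3* had 5.04 in EGFP+ and 15.8 in EGFP- cells, *Prrx2* 7.88 and 24.1, and *Bmp4* 7.75 and 15.3. *Hoxd13*, a digit gene, had 16.3 and 7.46, and *Tbx4*, a hindlimb gene, 20.4 and 13.5 with 11 gained and 2 lost distal intervals. With the own interval required to lie in the upper 50% of its list, 1 gene stayed gained and 0 lost, and among the 20000 strongest intervals 2 were gained and 4 lost.

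The other cell types of the limb, which the sort placed in the EGFP- fraction, were mostly not visible as peaks in either list. Of 13 muscle regulators 10 had no promoter peak, as had 13 of 19 sarcomere genes and 14 of 20 skin genes. The same held for 14 of 20 endothelial and 12 of 16 blood and macrophage genes, against 43.6% of all genes. Of 14 Schwann, melanocyte and neural genes, 7 or 50% had no promoter peak, near that share, and 5 were in both fractions. *Myod1*, *Myf5*, *Pax7*, *Krt5*, *Krt14*, *Pecam1*, *Cdh5*, *Ptprc* and *Gata1*, which define these types, had none. All 13 housekeeping genes found in the annotation had a peak in both fractions. The matrix genes thus went with the label of the EGFP+ cells, while the defining markers of the EGFP- cell types were mostly without a promoter peak in the EGFP- list too.

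Lost promoters made up 3 of 19 sarcomere genes (15.8%) and 4 of 20 skin genes (20%), against 2.02% of all genes, and 1 of 20 endothelial and 1 of 16 blood genes. In the sarcomere, *Tnnt1*, *Ryr1* and *Tnnt3* were lost with a −log10 p of 7.20, 6.30 and 4.11 and 13 to 22 reads. In skin, *Grhl3*, *Esrp1*, *Tfap2a* and *Grhl2*, which are regulators of epithelial identity, were lost with 6.68, 6.22, 5.17 and 4.12. In endothelium *Tek*, an angiopoietin receptor, was lost with 6.14 and 13 reads. In blood *Coro1a*, an actin regulator of leukocytes, was lost with 6.70 and 14 reads. At a −log10 q of at least 5, 0 genes of these 4 lists were lost. Gained promoters were found at 1 of 20 skin, 1 of 20 endothelial, 2 of 16 blood, 2 of 13 muscle regulator and 2 of 14 Schwann, melanocyte and neural genes, near the 4.83% of all genes in skin and endothelium. *Eng*, a TGF-β co-receptor, reached 15.3 with 31 reads, *Cldn6* 22.1 in an interval shared with *Thoc6* and *Tnfrsf12a*, *Six4* 14.0 with an EGFP- interval 83 bp away, *Sox10* 7.89, *Lyl1* 6.87, *Myog* 5.81 with 13 reads and *Laptm5* 4.67, and at a −log10 q of at least 5 the 2 gained blood genes were no longer called. *Erg*, described above, was marked in both fractions, and *Runx1* held 71 reads in EGFP+ and 29 in EGFP- cells. *Cdh1*, the epithelial cadherin, had no promoter peak and 1 gained and 6 lost distal intervals. *Myog* had 4 gained and 7 lost.

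Over all 21581 genes, 1042 promoters were gained, 435 were lost, 10699 were in both and 9405 in neither. The gained peaks were weaker than the shared ones, with a median −log10 p of 8.53 and 17 reads, against 36.6 and 66 reads for the EGFP+ peaks of genes in both. Lost peaks had a median of 6.78 and 14 reads. A −log10 p of 10 or more was reached by 396 gained and 69 lost promoters, and of 20 or more by 86 and 3. In 63 gained and 7 lost genes, the interval touched one of the opposite list outside the window.

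The 10 gained promoters of highest −log10 p included *Col9a2*, described above. *Lmcd1*, *Sec14l2*, *Spsb4* and *A530016L24Rik* of this set, like *Col9a2*, also belong to the study's genes enriched in EGFP+ RNA. *Mllt1*, a subunit of the super elongation complex, reached 65.1 with 82 reads, *Stk35* 46.7, *Eid2* 41.1, *Smim38* 40.4 and *Spsb4* 36.6, but the interval of each of these 5 ran past the window into an EGFP- interval. *Lmcd1*, a LIM domain cofactor, reached 49.4 with 80 reads (63.4 to 99.6), and the nearest EGFP- interval lay 5360 bp away. *Sec14l2*, a lipid-binding protein, reached 45.0 with 63 reads, *Zfp664* 38.8 in an interval shared with *Ccdc92*, and *A530016L24Rik* 35.3. In the trunk, *Sec14l2* was gained and *Smim38* had no promoter peak. The promoters of the other genes of this set, *Lmcd1* and *Mllt1* among them, had a peak in both trunk fractions. When the gained genes whose interval touched no EGFP- interval were ranked, which was done after the values were seen, the next ones were *Bmper* with 33.7, a secreted modulator of BMP signals with 12 gained and 1 lost distal intervals, *Ncmap* with 33.3, *Ppp1r36* with 32.7, *Camsap3* with 32.5 and *Chadl* with 31.5, a chondroadherin-like protein of cartilage matrix.

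The lost promoters of highest −log10 p were weaker. *Ppa2*, a mitochondrial pyrophosphatase, reached 34.3 with 50 reads, and its interval and that of *Creb3l1* at 18.4 touched an EGFP+ interval outside the window. *Txlnb*, a taxilin of striated muscle, reached 22.8 with 36 reads (25.2 to 49.8), and no EGFP+ interval lay within 72018 bp. *Fbln5*, an elastic fibre protein, reached 21.5 with 38 reads, *Ank3* 19.2, *Ccn6* 18.7 with 31 reads and 9 lost distal intervals, *Vsig10* 18.3, *Zfp318* 16.8, *Gstm7* 16.7 and *Slc48a1* 16.7.

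Where a gene was marked in both fractions, a gap of at least 50 percentile points in rank was found in 92 genes with the higher rank in EGFP+ cells and 14 with the higher rank in EGFP- cells. These were looked at after the values were seen. The widest gap to EGFP+ was at *Rab11fip4*, with 112 reads against 12, followed by *Rai1* with 85 against 14 in intervals 33905 bp apart, of which the EGFP+ one touched another EGFP- interval. The widest gap to EGFP- was at *Selenop*, a plasma selenium carrier, with 11 reads in EGFP+ and 56 in EGFP- cells. *Mfsd13a* followed with 10 and 57 in separate intervals. Its EGFP- interval also covered a start site of *Cuedc2* and touched another EGFP+ interval. Next were *Zfp811* with 8 and 26, *Matn2* with 9 and 24, and *Lama2*, a laminin of muscle basement membrane, with 8 and 27. *Myl9*, a myosin light chain of contractile cells, had 16 and 49 in intervals 192 bp apart, each of which touched another interval of the opposite list.

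Some genes differed between the fractions at 1 start site and not at another, which was also examined after the values were seen. Of 6817 genes with separate promoter windows, 298 had a gained window beside one marked in both fractions, 165 a lost window beside one in both, and 49 a gained and a lost window. The strongest gained alternative starts were at *Ppfibp1* with a −log10 p of 47.4, *Myl12a* with 46.5 and *Slc39a14*, a zinc transporter, with 44.7. Lost alternative starts were strongest at *Proser3* with 69.0 and *Ddx19b* with 48.9, followed by *Dennd2b* with 29.5, and *Fgf2* had one with 19.8. These windows were compared by presence within the window alone, so the edge effect described above applies to them.

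At distal sites the fractions shared fewer intervals than at promoters. Of 22833 distal EGFP+ intervals 15631, or 68.5%, were gained, and of 17768 distal EGFP- intervals 10056, or 56.6%, were lost. At promoters 18.5% (17.9 to 19) of EGFP+ intervals and 7.77% (7.37 to 8.19) of EGFP- intervals were without an opposite interval. These shares followed strength closely. Each list was split into 4 equal groups by −log10 p. In the weakest group of the EGFP+ list 83.9% of distal intervals were gained, and in the strongest group 10.1% (8.51 to 11.9), which were 128 intervals. In the EGFP- list 75.1% of the weakest and 2.08% (1.33 to 3.11), or 23 intervals, of the strongest group were lost. When the EGFP+ list was cut to the length of the EGFP- list by −log10 p, 10758 distal intervals were gained and 10802 lost. Equal lengths by themselves bring these counts close, because the lists share similar numbers of intervals (7202 and 7712 distal ones in the full lists). No balance between the fractions is therefore read from them. Among the 20000 strongest of each list, 3267 were gained and 3108 lost, to which the same applies.

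**Figure D3:**
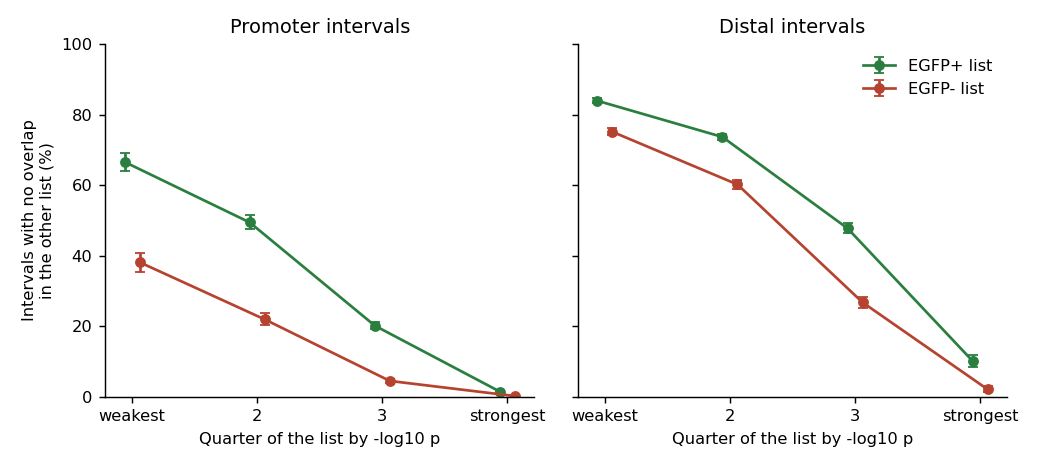
Share of intervals with no overlap in the opposite limb list (vertical axis, percent) by 4 equal groups of each list ranked by −log10 p (horizontal axis, weakest to strongest), for promoter intervals on the left and distal intervals on the right; points are shares and bars exact 95% intervals for counting error only. The share fell with strength at every step in both lists, from 83.9% to 10.1% for distal EGFP+ intervals and from 75.1% to 2.08% for distal EGFP- intervals.

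Gained distal summits lay in introns in 49.7% of cases, in exons in 4.79% and between genes in 45.6%, and lost ones in 44.8%, 3.42% and 51.8%. The median distance to a start site was 35.4 kb for gained, 39.5 kb for lost and 22.2 kb for shared distal summits of the EGFP+ list. Gained intervals were a little wider than lost ones, with medians of 291 and 252 bp, against 468 bp for shared EGFP+ intervals. On the autosomes and X, gained intervals made up 56.8% to 65.0% of the gained and lost ones, lowest on chromosome 3 and highest on X.

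The strongest gained distal interval lay in an exon of *Ogg1*, a DNA repair gene, at chr6:113310262-113310903, with a −log10 p of 42.4 and 62 reads. The next lay 25.8 kb upstream of *Clic4* at chr4:135024947-135026525 with 39.3, 383 kb downstream of *Mtx2* at chr2:75038873-75040484 with 38.8, in an intron of *Plekhm2* with 37.6 and 111 kb upstream of *Lpp* with 37.4. Among the widest gained intervals was one of 2038 bp, 31.0 kb upstream of *Fmod*, the collagen-binding fibromodulin, at chr1:133932827-133934864, with 36.8 and 74 reads. The strongest lost distal interval lay in an intron of *Abl1* at chr2:31638961-31639677 with 29.8 and 54 reads. It was followed by one 159 kb downstream of *1700018B08Rik* with 29.1, one 17.5 kb downstream of *Ptges*, a prostaglandin synthase, with 28.5, one in an intron of *Hnrnpab* with 27.3 and one 45.7 kb downstream of *Cd69* with 27.

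Gene by gene, 8084 genes had more gained than lost distal intervals within 100 kb, 4739 had more lost, and 6892 had neither kind. At least 3 gained and 0 lost were found around 1449 genes, 6.71% of all, and at least 3 lost and 0 gained around 449, or 2.08%. With the EGFP+ list cut to the EGFP- length, which brings the gained and lost counts close by itself, these shares were 3.6% and 3.32%. The list of cartilage matrix genes had 188 gained and 36 lost, with 21 of 25 genes having more gained. In this and the other list totals, an interval within 100 kb of 2 listed genes is counted for each of them. Neighbours such as *Acan* and *Hapln3* may thus share intervals. *Acan* had 18 gained and 1 lost, *Col2a1* 14 and 2, *Hapln3* 12 and 1, *Matn1* and *Col27a1* 11 and 1, and *Ucma*, a secreted matrix protein with no promoter peak, 6 and 0. *Epyc* went against this with 2 and 4.

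**Figure D4:**
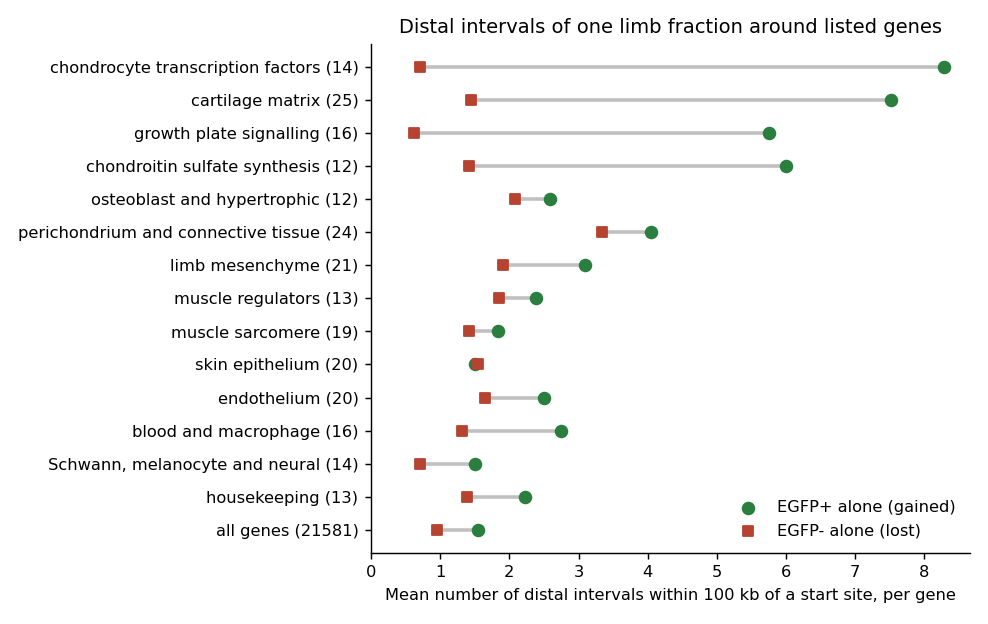
Mean number of distal intervals of 1 limb fraction alone within 100 kb of a start site (horizontal axis, per gene), for EGFP+ cells (circles) and EGFP- cells (squares), by gene list with the number of genes in brackets. Chondrocyte transcription factors had 8.29 gained and 0.714 lost per gene, connective tissue genes 4.04 and 3.33, and all genes 1.55 and 0.952.

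The largest surplus of gained intervals was around *Aopep*, with 36 gained and 1 lost over the 475 kb that its spread start sites cover, near *Ptch1* with 9 and 1. *Tcf7l2*, a nuclear effector of WNT signals, had 21 gained and 0 lost, *Foxp1* 21 and 2, *Ankfn1* 20 and 2, *Tiam2* 20 and 3, *Msi2* 18 and 1, *Mas1* 18 and 2, and *Agap1* 17 and 1. *Wwp2*, a ubiquitin ligase gene transcribed with a cartilage microRNA in its introns, had 19 and 2 and shares them with its neighbour *Nob1*, with 18 and 1. *Acan* and *Runx3* completed this set. Genes with many start sites collect more intervals, and the median span searched was 332 kb in this set and 200 kb over all genes.

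The largest surplus of lost intervals was around *Tgfbr3*, the betaglycan co-receptor, with 5 gained and 21 lost. *Lamc1*, a laminin γ chain, had 1 gained and 13 lost. *Spry1*, a feedback inhibitor of receptor tyrosine kinases, had 1 and 13, *Tspan5* 0 and 11, *Tead1*, a factor of the Hippo pathway, 2 and 12, and *Vcam1*, an adhesion receptor, 1 and 10. *Sorcs2* had 4 and 13, *Snap47* with *Jmjd4* 1 and 10, and *Wdr4* with *Ndufv3*, *Calm2* and *Tmem132c* 0 and 9 each. Of the 14 genes in this set 0 were gained or lost at the promoter, against 4.83% gained and 2.02% lost over all genes. A set this small can hold none at such shares.

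Promoter and distal calls were related loosely. Genes with a gained promoter had a mean of 2.54 gained and 1.22 lost distal intervals, genes with a lost promoter 1.68 and 1.42, and genes marked in both 1.97 and 1.20. In 52 genes the calls were opposed, 25 with a gained promoter and at least 3 lost but 0 gained distal intervals, and 27 with the reverse. These were 2.40% of the gained and 6.21% of the lost promoters, close to the 2.08% and 6.71% of all genes with such distal counts, and the genes below are given as examples. The strongest of the first kind were *Vps37d* with a −log10 p of 28.9 and *Usp12* with 25.3, whose intervals touched an EGFP- interval outside the window, and *Epb41l4a* with 15.7, and *Cbs*, a transsulfuration enzyme, had 8 lost distal intervals. *Hbegf*, an EGF receptor ligand, and *Apln*, an angiogenic peptide, were also among them. The strongest of the second kind was *Fbln5*, with 6 gained distal intervals, followed by *Tppp3* with 11.6, *Cacnb3* with 10.5 and *Chrd*, the BMP antagonist chordin, with 10.3 in an interval that was shared with *Thpo* and touched an EGFP+ interval outside the window. *Hoxd11* was lost at the promoter with 4.71 and had 4 gained distal intervals.

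Short consensus strings at the distal summits differed little between the fractions. They were searched on both strands in the same windows of 100 bp on either side of each summit, in 15631 gained, 10056 lost and 7202 shared windows of the EGFP+ list. The SOX string ACAAAG was present in 16.8% (16.2 to 17.4) of gained, 20% (19.3 to 20.8) of lost and 17.6% of shared windows, and ACAATG in 8.80%, 10.3% and 7.64%. So the SOX strings were less frequent in gained than in lost windows, and the same order held in the upper 50% of each list, with 16.4% and 22.1% for ACAAAG. The E-box CAGCTG was present in 12.5% of gained and 15.0% of lost windows. For every other string the counting intervals of gained and lost windows overlapped. These were the TEAD string ACATTCC (3.15% and 3.79%), the string AGATAAG of GATA factors (2.04% and 2.42%), the E-box CATATG (3.63% and 3.96%), the FOX string TGTTTAC (2.75% and 2.98%), the RUNX string TGTGGTT (4.36% and 4.33%), the AP-1 string TGAGTCA (3.44% and 3.66%), and the ETS string CCGGAAG (1.13% and 1.13%). A MEF2 string was found in 12 gained and 10 lost windows and a CTCF string in 2 and 1. Over all 32889 windows ACAAAG was present in 18%, CAGCTG in 13.6% and ACAATG in 9%. GC content averaged 48.5% in gained, 47.8% in lost and 51.9% in shared windows, and its part in these shares was not tested. Acetylated nucleosomes flank a bound factor, so a summit window need not hold the factor's site. The paper reports SOX9 motifs enriched in its chondrogenic enhancers over open chromatin without H3K27ac. It used binding profiles around open-chromatin peaks, which is another measure and comparison than short strings at H3K27ac summits.

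The study's own gene lists were set beside these calls. They were chosen on single-cell and bulk RNA of the same reporter limbs, so they are not independent evidence of direction. Of 126 chondrocyte cluster genes, 23 promoters or 18.3% were gained, 0 lost and 101 in both. More gained than lost distal intervals were found around 87.3% of them, against 37.5% of all genes. That distal share was 41.4% to 66.7% in the 7 other mesenchymal clusters, highest in perichondrium. In those 7 clusters 3.03% to 6.67% of promoters were gained, against 4.83% of all genes and 8.56% of genes with a promoter peak in either list. Few genes of these clusters had no promoter peak, 3.03% to 10.8%, against 43.6% of all genes. Pericartilaginous mesenchyme had the highest lost share, 11 of 126 or 8.73%, and muscle connective tissue 15 of 343 or 4.37%, against 2.02% of all genes. Of 563 genes enriched in EGFP+ RNA of limbs and trunk, 192 or 34.1% were gained and 2 lost, namely *Slc35e3* with 10.4 and *Asb16* with 4.03. Of 49 genes with a limb preference in EGFP+ cells, 11 were gained, 0 lost, 9 in both and 29 in neither. The strongest gained of these were *Pthlh*, *Psma8* with 13.9, *Cdkl4* with 11.7 and *Prdm16* with 11.5, and 9 of the 11 had no trunk promoter peak.

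The same genes were looked up in the trunk lists, which held 36231 EGFP+ and 30716 EGFP- intervals, to see which limb calls stood in a separate pair of libraries. Of the 1042 genes gained in the limb, 314 or 30.1% (27.4 to 33.0) were gained in the trunk, 270 were in both trunk fractions, 358 in neither and 100 were lost. Of the 435 lost in the limb, 169 or 38.9% (34.2 to 43.6) were lost in the trunk and 26 gained. Over all genes the trunk had 3.22% gained and 3.31% lost. For the 86 limb-gained genes with a −log10 p of 20 or more, 33 were gained in the trunk and 42 were in both trunk fractions. Among the 15 gained matrix genes, 13 were gained in the trunk, *Col9a2* was in both trunk fractions and *Otor* in neither. *Sox8* and *Runx3* had no trunk promoter peak, and *Foxc1* was in both. The limb genes *Msx1*, *Msx2*, *Lhx2*, *Tbx2*, *Pitx1* and *Prrx1*, gained in the limb, had no trunk promoter peak. *Dpt* and *Dcn* were lost in both tissues. The trunk libraries were named for another lane than the limb libraries, and effects of lane and of tissue cannot be told apart.

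**Figure D5:**
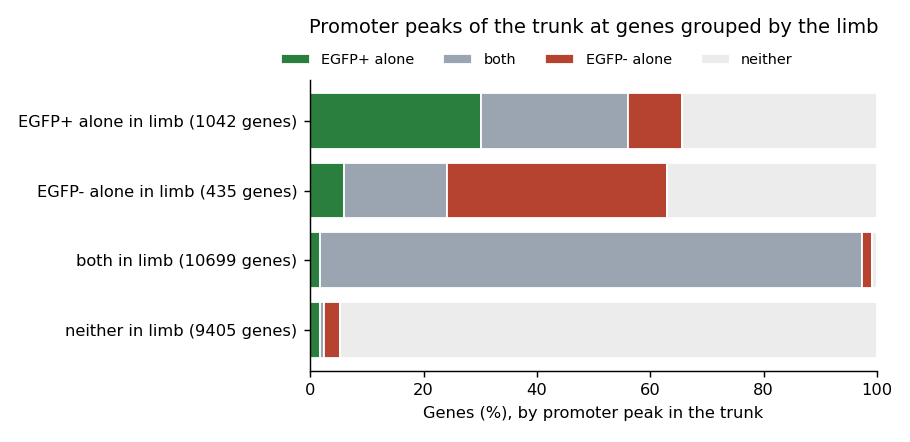
Promoter state in the trunk (horizontal axis, percent of genes) for genes grouped by their promoter state in the limb, with the number of genes in brackets. Of the genes gained in the limb 30.1% were gained and 9.60% lost in the trunk, and of those lost in the limb 38.9% were lost and 5.98% gained.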

How the data were processed

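H3K27ac ChIP-seq was measured in EGFP+ and EGFP- limb cells, and the trunk lists served for 1 comparison. Per the study's methods, similar numbers of reads were drawn at random from each library; the authors trimmed them with cutadapt 1.18, mapped them with Bowtie2 2.3.5.1 to GRCm39 (mm39), filtered them with SAMtools and called peaks per library with MACS2 2.2.7.1, per the labels and the study's methods. No control library is named. Rows of the deposited lists are summits, and their score restates the −log10 q. The deposited fold is a ratio to the local background of the same library, and the deposited −log10 p and −log10 q refer to that background. The lowest −log10 q was 1.30 in both limb lists. No fold was divided by a fold of another list.

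Genes, exons and start sites came from GENCODE M39 on GRCm39, and sequences from the same build. Reads at a summit were solved from fold and −log10 p, with matches within 0.1% counted as recovered. Groups followed the labels, with 1 library per condition and no test. Shares have exact Clopper-Pearson and reads exact Poisson intervals at the 95% level. The 14 gene lists held 240 genes, of which 239 were found. The members and lists were chosen with earlier results of these data known. Genes were named as up to 6 per list by strength of a gained or lost promoter and then by distal intervals, the 10 strongest gained and lost promoters, the 10 largest and smallest differences of distal counts with ties, the 5 strongest gained and lost distal intervals, and genes with opposed calls. Other genes were named after their values were seen. Some genes that the rule names are not reported here. Alternatives were a −log10 q of at least 5, a fold of at least 4, the 20000 strongest intervals, lists of equal length, own intervals in the upper 50%, an overlap of 50% of the shorter interval, no opposite interval within 1 kb, a 500 bp promoter window, the most upstream start site, 50 and 500 kb, and autosomes only. The requirement that the promoter interval touch no opposite interval was added after the values were seen. Calls were tested on simulated data. The tools were samtools 1.23.1 and Python 3.11.15 with scipy 1.17.1, pandas 2.3.3, numpy 2.4.6, matplotlib 3.10.9 and pysam 0.24.0.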

Additional observations from a re-analysis of the deposited data

Results flagged for a closer look

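Promoter calls that pointed in opposite directions in the limb and in the trunk were singled out, with 1 library per fraction and tissue and no test of the difference. There were 100 genes gained in the limb and lost in the trunk and 26 with the reverse. Among the genes named above or listed, *Epb41l4a* was gained in the limb with a −log10 p of 15.7 and lost in the trunk with 4.88, *Garem1* gained with 10.2, with an EGFP- limb interval 75 bp away, and lost with 14.2, *Irx5* gained with 8.4 and lost with 8.57, and *Cyfip2* gained with 4.97 and lost with 8.53. *Man2b2* was lost in the limb with 6.44 and gained in the trunk with 6.86. The strongest limb call of this kind was *Camsap3*, gained with 32.5 and lost in the trunk with 8.

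Outside chromosomes 1 to 19, X and Y, the limb EGFP+ list held 38 intervals and the limb EGFP- list 43, which entered no comparison. The EGFP- list had 5 mitochondrial summits and the EGFP+ list 0.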

How the results depend on the processing

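The limits of these values are the single library per fraction and the dependence on weak peaks. Gained promoters outnumbered lost ones under every alternative run, and gained and lost promoter counts stayed within 1.5 times of those reported except with the own interval in the upper 50%, which left 380 gained and 74 lost promoters, 2500 gained and 892 lost distal intervals, and 1.83% of genes gained and 0.0510% lost at distal sites. A −log10 q of at least 5 left 7491 and 3252 distal intervals and 0.519% of genes lost at distal sites. A fold of at least 4 left 7559 and 4248 intervals and 4.02% and 0.672% of genes. The 20000 strongest intervals left 3267 and 3108 intervals and 1.66% and 0.992% of genes. Equal list lengths gave 3.6% and 3.32% of genes, 50 kb gave 1.27% lost and 500 kb gave 2.39% and 1.11%. In each case the cause was not tested. Requiring that the promoter interval touch no opposite interval, chosen after the values were seen, left 979 gained and 428 lost promoters. Of the 44 listed genes with a gained promoter, 13 were still gained at a fold of at least 4 and 32 at a −log10 q of at least 5, and 0 became lost under any alternative run. An overlap of 50% cannot change promoter calls and was not run for them. No paired analysis was possible because each fraction has 1 library, and none could be left out.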
